A study of Homo sapiens with 30 samples.

Results

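The step between 6 and 12 h of activation was examined in wild-type (WT) Jurkat E6-1 cells, which grow continuously and derive from a human T cell leukaemia. The comparison sets the 3 WT libraries of the 12 h time point against the 3 of the 6 h time point, 6 of the 30 libraries in the series. The 3 WT libraries at 0 h, from unstimulated cells, served to say which early changes faded, persisted or began later. The same step in cells knocked out for isoform 1 of SLAMF6 (KO), with 3 stimulated libraries at each time, was used for contrast. The knockout is that of the design text, which was followed, whereas the series title speaks of overexpressed isoform 3. No further alteration of WT or KO cells is named. The 6 h and 12 h cells of both genotypes are labelled only as stimulated. The treatment text, written for a cytokine assay, names PMA, a phorbol ester, together with ionomycin, which carries calcium across membranes. The labels state neither whether libraries of 1 group were grown apart nor whether the KO line is 1 clone. The p-values therefore rest on a spread between libraries that may be technical. Of 54300 gene symbols, 21554 had enough counts to be tested, and 8964 of them had a mean of at least 10 CPM, the count scaled to a common library size, over the 6 libraries.

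PMA activates protein kinase C and ionomycin raises cytosolic calcium, so together they stand in for signals from the T cell receptor. Early in such a response NF-kB, AP-1, NFAT and EGR factors switch on cytokine and receptor genes, and many of these genes are shut down again by feedback inhibitors and by decay of short-lived mRNAs. Later waves include interferon-stimulated genes, and a withdrawal from or entry into the cell cycle that depends on the cell. Jurkat cells derive from an immature T cell leukaemia and express thymocyte genes and the oncogenic transcription factor TAL1 before any stimulus.

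The 6 h libraries held 21.0 to 22.0 M counts and the 12 h libraries 13.8, 19.5 and 15.7 M. All 8 T cell markers were expressed, with summed levels of 3670 to 4010 CPM at 6 h and 4700 to 4780 CPM at 12 h. Summed levels of the 9 monocyte markers were 15.5 to 16.5 CPM at 6 h and 11.8 to 19.3 CPM at 12 h, and those of the 6 B cell markers 21.7 to 23.9 and 17.1 to 19.7 CPM. The 9 markers of adherent lines summed to 1.95 to 4.96 and 4.06 to 7.28 CPM, and the 8 erythroid markers to 0.952 to 1.23 and 1.38 to 2.82 CPM. HBA1 was at 0 at both times. The 12 h libraries detected more symbols: thinned to 13.8 M counts they held 33272, 37981 and 34415, against 28840 to 29817 at 6 h. Replicate 2 at 12 h stood highest. The part of this difference in the changes of weakly expressed genes was not tested. Because these are bulk libraries, a change in the share of cells expressing a gene and a change in RNA per cell cannot be told apart.

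Between 6 and 12 h, 829 genes rose and 1216 fell (edgeR quasi-likelihood test, Benjamini-Hochberg adjusted p below 0.05). These were 3.85% and 5.64% of the genes tested. Among genes of 10 CPM or more, 393 rose (4.38%) and 1036 fell (11.6%), and the median change of all 8964 was -0.10 on the log2 scale. Of the genes that passed the test there, 77 rose and 112 fell by 2-fold or more. Rises made up 40.5% of the 2045 calls with TMM scaling, 55.4% with RLE scaling and 56.4% with DESeq2, so the balance between rises and falls depended on the scaling. Below 1 CPM, 198 genes rose and 15 fell, whereas at 100 CPM or more 138 rose and 306 fell. With 1 of the 6 libraries left out, 52 to 134 rises were called below 1 CPM, the fewest without replicate 2 at 12 h. Leaving out any 6 h library, or replicate 2 or 3 at 12 h, left 1209 to 1340 calls, and leaving out replicate 1 at 12 h left 1427.

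**Figure D1:**
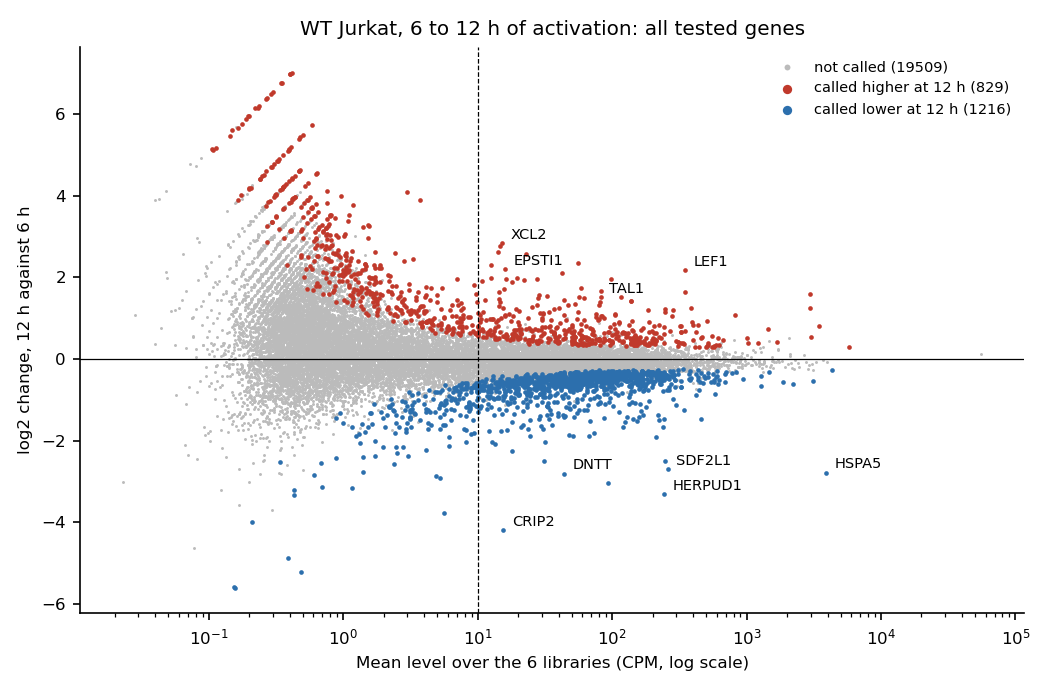
Change from 6 to 12 h in WT cells (vertical axis, log2) against the mean level over the 6 libraries (horizontal axis, CPM on a log scale), 1 point per tested gene, with called genes in colour and a dashed line at 10 CPM. Among well-expressed genes the falls outnumber the rises, with HSPA5 standing apart as an abundant transcript that fell, and the large fitted changes at the left come from genes with few counts.

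Most early changes were still present at 12 h. At 6 h, 2553 genes were above their 0 h level (11.8% of those tested) and 2265 below it (10.5%). At 12 h, 6540 genes (30.3%) differed from 0 h. Of the 2553 early rises, 1514 (59.3%) persisted, meaning that they were still called against 0 h at 12 h and did not pass the test in the step. A further 361 (14.1%) faded, with a called fall after the called rise, and 183 (7.17%) rose again. Of the 2265 early falls, 1536 (67.8%) persisted, 263 (11.6%) fell further and 132 (5.83%) turned back up. The remaining 495 early rises and 334 early falls could not be placed, because neither later comparison was called.

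Fading was mostly a return towards the 0 h level. Of the 361 fading rises, 218 were not called against 0 h at 12 h, 120 were still above it and 23 had gone below it. Of the 132 early falls that turned back, 92 were not called against 0 h, 31 stayed below and 9 ended above. Changes that began after 6 h numbered 311 rises and 455 falls, and another 340 step calls fitted none of these classes. The balance of rises and falls in these classes turned with the scaling. Late changes were 387 rises and 269 falls with RLE and 500 and 317 with DESeq2, and extended changes, 183 rises and 263 falls here, were 235 and 209 with RLE and 256 and 252 with DESeq2. Among genes of 10 CPM or more the counts were 288 fading rises, 73 reversed falls, 145 late rises and 400 late falls. Leaving out 1 of the 9 libraries at a time gave 76 to 122 reversed falls, 143 to 260 extended falls, 119 to 178 extended rises, 169 to 277 late rises and 258 to 480 late falls. The 3 comparisons share libraries, so these counts describe the rule and carry no test of their own.

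**Figure D2:**
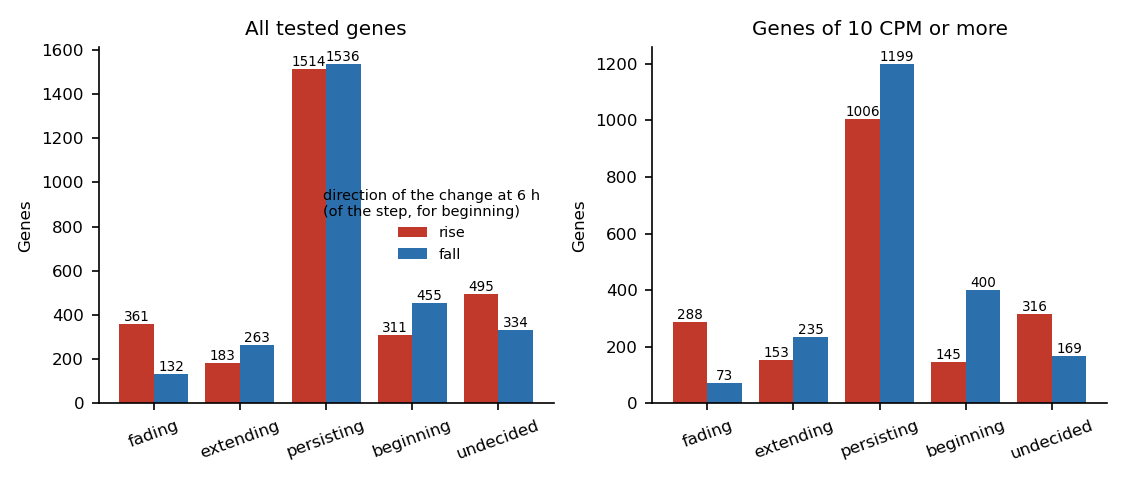
Number of genes in each class of time course for all tested genes (left) and for genes of 10 CPM or more (right), with rises in red and falls in blue. Persisting changes form the tallest bars on both sides (1514 rises and 1536 falls on the left), and fading is more frequent among rises than among falls.

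Many genes of the unfolded protein response of the endoplasmic reticulum (ER) faded. This response raises chaperones and degradation factors when unfolded proteins build up in that organelle. Of the 31 members tested, 27 were above 0 h at 6 h, beside 11.8% of all genes. In the step 22 fell, with log2 changes from -3.31 to -0.27. Among all tested genes 5.64% fell, and among those of 10 CPM or more, the level of all 31, 11.6% did. Only ATF6, a sensor of ER stress, rose, by 0.39 (log2), a call lost without replicate 2 at 6 h. The median change was -0.60, beside 0.02 for all tested genes.

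HSPA5 (chr9:125234853-125241330, positions of GENCODE on GRCh38) encodes BiP, the main chaperone of the ER lumen. Its level was 2320, 2090 and 2330 CPM in the 0 h libraries, 6760, 7020 and 6790 CPM at 6 h and 1010, 1000 and 975 CPM at 12 h. The 3 times did not overlap, and every 12 h library lay below every 0 h library. The fall in the step was 6.88-fold (log2 -2.78, SE 0.11, adjusted p = 5.99e-19). HERPUD1 (chr16:56932048-56944863), a component of ER-associated degradation, stood at 460, 458 and 417 CPM at 6 h and at 49.9, 42.2 and 43.0 CPM at 12 h, after 178 to 186 CPM at 0 h. It fell 9.9-fold (log2 -3.31, SE 0.109, adjusted p = 4.05e-21).

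SDF2L1, a cofactor of BiP, followed the same course: 182 to 211 CPM at 0 h, 396 to 503 at 6 h and 67.3 to 75.9 at 12 h (log2 step -2.69, SE 0.116, adjusted p = 6.6e-18). DNAJC3, a co-chaperone that restrains the kinase PERK, went from 357, 371 and 367 CPM at 6 h to 122, 124 and 101 CPM at 12 h (log2 -1.66, adjusted p = 3.08e-13). XBP1, the transcription factor activated by IRE1, fell by 1.52 on the log2 scale, and MANF and DNAJB9 fell by 1.26 and 1.89. Some members did not pass the test. The sensor gene ERN1 averaged 16.0 CPM at 6 h and 14.8 CPM at 12 h (adjusted p = 0.777). CALR, the lumenal chaperone calreticulin, averaged 850 and 853 CPM and gave an adjusted p of 0.988.

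DDIT3, which encodes the stress factor CHOP, faded in parallel from 111 to 117 CPM at 6 h to 30.7 to 34.1 CPM at 12 h (log2 -1.82, SE 0.129, adjusted p = 3.81e-12). It belongs to the list of amino acid stress genes and tRNA synthetases, of whose 39 members 8 fell and 1, the tryptophanyl-tRNA synthetase WARS, rose. Among all genes of 10 CPM or more 11.6% fell. Without replicate 1 at 6 h 5 of the list fell and without replicate 3 at 12 h 4 did, and the rise was lost without replicate 2 or 3 at 6 h or replicate 1 or 3 at 12 h. SLC7A11, the cystine transporter, fell from 20.8 to 23.7 CPM to 4.57 to 5.43 CPM (log2 -2.09, adjusted p = 1.91e-10). PHGDH, the first enzyme of serine synthesis, extended an early fall from 236 to 255 CPM to 91.8 to 118 CPM (log2 -1.17, adjusted p = 2.67e-08). Among cytosolic chaperones the opposite direction was also seen, as HSPA8 rose from 2500 to 2590 CPM to 4220 to 4600 CPM (log2 0.80, adjusted p = 1.02e-05).

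The promoters of the 3 ER genes with the smallest p in the step are shown because this group moved together. They are the 250 bases before the start site in RefSeq on GRCh38.p14, printed 5′ to 3′ on the strand of the gene. Capitals mark CCACG, a part of the ER stress element, on either strand, and in HSPA5 also the CCAAT that lies 9 bases before it. HERPUD1 is read from the plus strand at chr16:56931892-56932141, HSPA5 from the minus strand at chr9:125241344-125241593 and SDF2L1 from the plus strand at chr22:21642052-21642301.
HERPUD1: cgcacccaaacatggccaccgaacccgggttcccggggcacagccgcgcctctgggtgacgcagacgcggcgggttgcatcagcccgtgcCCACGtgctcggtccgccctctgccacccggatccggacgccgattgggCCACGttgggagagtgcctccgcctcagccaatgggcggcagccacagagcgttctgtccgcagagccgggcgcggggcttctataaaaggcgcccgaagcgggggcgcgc
HSPA5: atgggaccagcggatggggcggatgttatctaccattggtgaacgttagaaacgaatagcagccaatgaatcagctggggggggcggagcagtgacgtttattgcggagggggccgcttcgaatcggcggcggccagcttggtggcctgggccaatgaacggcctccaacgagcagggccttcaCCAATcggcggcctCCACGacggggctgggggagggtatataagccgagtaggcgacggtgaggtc
SDF2L1: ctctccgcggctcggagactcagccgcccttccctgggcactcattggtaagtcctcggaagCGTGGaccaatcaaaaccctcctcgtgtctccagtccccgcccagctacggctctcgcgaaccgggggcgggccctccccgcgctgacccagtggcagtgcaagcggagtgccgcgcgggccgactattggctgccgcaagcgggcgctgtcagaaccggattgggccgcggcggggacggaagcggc

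Promoters were found for 20 of the 22 ER genes that fell, in windows of 300 bases from 250 before to 50 after the start. CCACG was present in 18 of the 20 (90.0%), beside 47.5% of the 11600 tested genes with a promoter. It was also present in 55.2% of all genes that fell, 76.5% of the S phase genes that fell and 75% of the cholesterol genes that fell. The full spacing of CCAAT, 9 bases and CCACG, a search chosen after the values were seen, was present in 4 of the 20 (20%), in 0.787% of all genes that fell and in 0.121% of all. The 4 are HSPA5, HSP90B1, CRELD2 and XBP1. A match describes the letters in these windows and says nothing of factor binding.

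**Figure D3:**
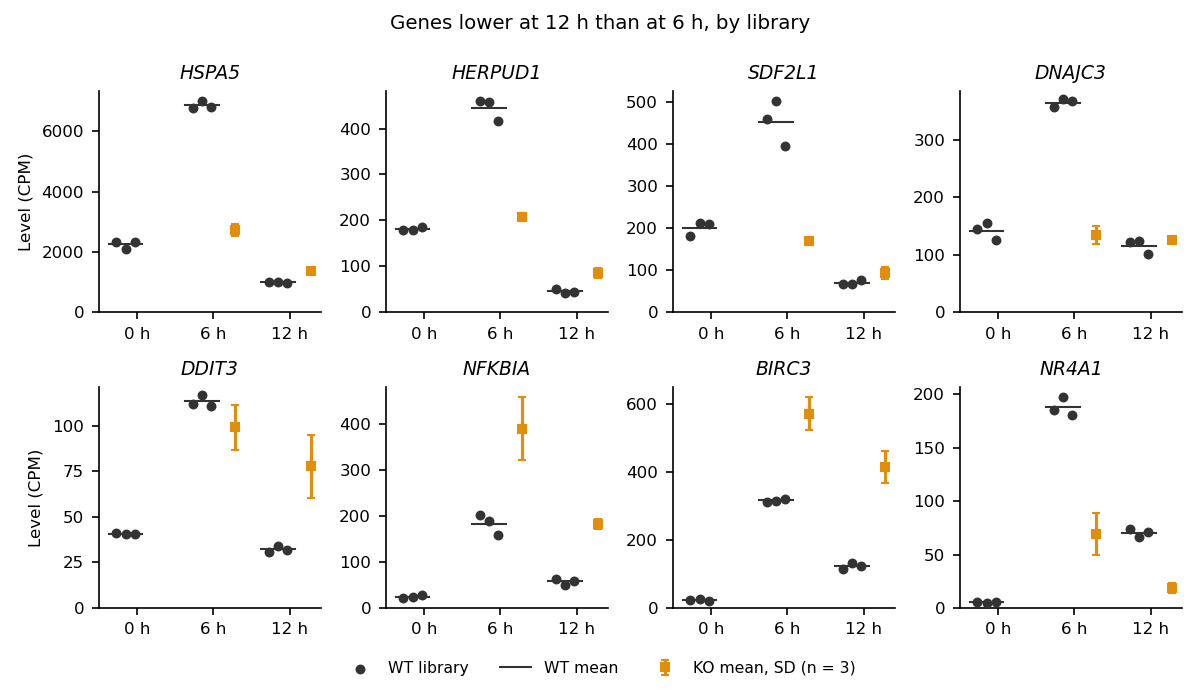
Levels (vertical axes, CPM, each from 0) of 8 genes that were lower at 12 h than at 6 h, with 1 point per WT library at 0, 6 and 12 h, a line for the WT mean, and squares with bars for the KO mean and SD (n = 3) at 6 and 12 h. The 12 h points lie below the 6 h points in every panel, and HSPA5, HERPUD1 and SDF2L1 end below their 0 h points.

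Genes of the NF-kB pathway also fell back. Of 21 subunits, inhibitors and targets tested, 18 had risen by 6 h, beside 11.8% of all genes. In the step 8 fell and none rose, beside 5.64% of all genes that fell and 11.6% of those at 10 CPM or more. With RLE or DESeq2 scaling 7 fell and 1 rose. Of the falls, 7 were fading rises. NFKBIA, the inhibitor that holds NF-kB in the cytoplasm, had 203, 190 and 159 CPM at 6 h and 63.4, 50.5 and 59.2 CPM at 12 h, against 22.7 to 28 CPM at 0 h (log2 step -1.68, SE 0.146, adjusted p = 4.1e-10). BIRC3, an inhibitor of apoptosis, went from 313 to 322 CPM to 116 to 131 CPM (log2 -1.37, adjusted p = 5.3e-09). The subunit genes NFKB2 and RELB fell by 1.06 and 0.76 on the log2 scale. BCL2A1, an anti-apoptotic target, had 45.2 to 56.3 CPM at 6 h and 30 to 46.4 CPM at 12 h and did not pass the test (adjusted p = 0.42).

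Immediate early and activation factors split. Of 27 tested, 19 were up at 6 h, beside 11.8% of all genes. In the step 6 rose (BATF3, EGR1, JUND, EGR3, EGR2 and NR4A2) and 3 fell (NR4A1, NR4A3 and CREM). Over all tested genes 3.85% rose and 5.64% fell. EGR1 went from 312, 332 and 297 CPM to 566, 544 and 576 CPM (log2 0.84, SE 0.148, adjusted p = 0.000207). EGR2 went from 58.7 to 62.1 CPM to 159 to 188 CPM (log2 1.52, adjusted p = 5.56e-05). The nuclear receptor gene NR4A1 moved the other way, from 185, 197 and 181 CPM to 73.5, 66.7 and 71.5 CPM (log2 -1.41, SE 0.222, adjusted p = 4.38e-05). Its relative NR4A2 rose from 1.84 to 3.41 CPM to 8.98 to 12.8 CPM (adjusted p = 0.0204). The rises of this list were sensitive to single libraries, with 2 to 5 left when one of the 6 was left out.

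MYC had dropped early and its later values were scattered. It had 258 to 296 CPM at 0 h, 71.8, 62.7 and 74.2 CPM at 6 h and 48.3, 32.8 and 22.0 CPM at 12 h, with an adjusted p of 0.0623 in the step. Among the 30 genes of the MYC network and ribosome biogenesis, 7 fell and 1, the RNA polymerase I factor UBTF, rose. Of all genes of 10 CPM or more, the level of 27 of the 30, 11.6% fell and 4.38% rose. With RLE scaling 2 of the list fell, with DESeq2 4, and with 1 library left out 2 to 5.

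Of 29 cytokine genes tested, 23 had risen by 6 h, beside 11.8% of all genes. Of the 29, 16 were early rises that were still called at 12 h without a called step. In the step 3 rose and 4 fell, beside 3.85% and 5.64% of all genes. IL2, the main T cell growth factor, had no count at 0 h, 13.7, 15.1 and 14 CPM at 6 h and 12.7, 10.5 and 4.95 CPM at 12 h. The change between the later times did not pass the test (log2 -0.61, SE 0.472, adjusted p = 0.462). IFNG, which encodes interferon gamma, fell from 7.41, 4.90 and 8.10 CPM to 1.30, 1.83 and 1.11 CPM (log2 -2.24, SE 0.532, adjusted p = 0.00568), and only 1 count was seen at 0 h. LTB, encoding lymphotoxin beta, fell from 11.1 to 16.1 CPM to 2.68 to 5.08 CPM, and IL23A and IL32 fell by 0.69 and 0.66 (log2).

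The 3 rises were those of IL16 and of the chemokine genes XCL1 and XCL2. XCL2 had 4.10, 3.07 and 3.94 CPM at 6 h and 34.9, 26.0 and 18.6 CPM at 12 h (log2 2.83, SE 0.681, adjusted p = 0.00625). XCL1 had 5.00 to 7.82 CPM and 26.3 to 48.0 CPM (log2 2.56, adjusted p = 0.0119), a call lost with DESeq2 or without replicate 2 at 6 h. The 2 genes are near-identical neighbours on chromosome 1, so their reads may be shared. IL8 and CCL4, both chemokines, persisted, IL8 at 11.5 to 12.5 CPM and then 6.44 to 10.2 CPM, and CCL4 at 31.3 to 42.1 and then 20.6 to 38.9 CPM.

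Of 20 surface receptors of activation tested, 12 were persisting rises, 4 fell (IL2RA, TNFRSF4, CD6 and CD83) and 1, the ectoenzyme gene CD38, rose. Over all genes 5.64% fell and 3.85% rose. Without replicate 1 at 6 h 2 of the list fell. IL2RA, the high-affinity subunit of the IL-2 receptor, went from 66.7, 64.2 and 69.0 CPM to 27.2, 30.9 and 28.7 CPM (log2 -1.20, SE 0.224, adjusted p = 0.000422). CD69, the classic early activation marker, had 694, 674 and 658 CPM and then 939, 980 and 884 CPM. The groups did not overlap, but the test was not passed (log2 0.47, SE 0.171, adjusted p = 0.0796). In the cytotoxic granule list of 15 genes, 2 rose and 1 fell. GZMB fell from 210 to 241 CPM to 81.2 to 92.7 CPM, whereas GZMA rose from 181, 182 and 149 CPM to 522, 539 and 527 CPM (log2 1.63, SE 0.164, adjusted p = 1.04e-08).

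The largest falls of the step among genes of at least 10 CPM at 6 or 12 h included several that had been induced only briefly. CRIP2, a LIM-domain protein gene, went from 4.08 to 6.17 CPM at 0 h to 30, 31.8 and 26.8 CPM at 6 h and to 1.45, 2.31 and 0.991 CPM at 12 h (log2 step -4.18, SE 0.305, adjusted p = 7.3e-12). The sialidase gene NEU4 rose to 8.06 to 13.8 CPM and returned to 0.495 to 1.01 CPM. ATP6V0A4, a subunit of the vacuolar proton pump, had 2.41 to 3.85 CPM at 0 h, 163 to 172 CPM at 6 h and 19.6 to 21.8 CPM at 12 h (log2 step -3.03, SE 0.201, adjusted p = 1.1e-12). It was still above its 0 h level, as was SH3RF2, which had 51.4 to 54.6 CPM at 6 h and 8.22 to 10.6 CPM at 12 h.

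Genes of DNA replication went on falling. Of 30 S phase genes tested, 28 were below 0 h at 6 h, beside 10.5% of all genes. In the step 21 fell and none rose, beside 5.64% of all genes that fell and 11.6% of those at 10 CPM or more, with called changes from -1.72 to -0.35 (log2) and a median of -0.56. Of the 21, 20 were extensions of an early fall. RRM2, a subunit of ribonucleotide reductase, went from 888 to 920 CPM at 0 h to 483, 476 and 480 CPM at 6 h and 203, 194 and 210 CPM at 12 h (log2 step -1.24, SE 0.106, adjusted p = 2.86e-10). CDC6, which loads the replicative helicase, went from 80.3 to 93.0 CPM to 33.4 to 41.2 CPM, and MCM7, a subunit of that helicase, from 543 to 566 CPM to 313 to 351 CPM. Of the 17 promoters found for the genes that fell, 10 (58.8%) held TTTGGCGC or TTTCCCGC, 2 forms of the E2F site, on either strand, beside 6.74% of all genes that fell and 3.37% of all.

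Of 28 genes of G2 and mitosis, all of 10 CPM or more, 4 fell (KIF23, CCNA2, PRC1 and NUSAP1), by at most 0.46 on the log2 scale, and none rose. That share lies near the 11.6% of all such genes that fell. Without replicate 2 at 12 h 1 fall was called, and without replicate 3 at 6 h, or with RLE scaling, 2 were. CCNA2, the cyclin of S and G2 phase, had 221 to 226 CPM at 6 h and 151 to 177 CPM at 12 h (adjusted p = 0.0111). Among regulators of G1 the cyclin D1 gene CCND1 rose from 1.63 to 2.32 CPM to 5.51 to 6.92 CPM and CDKN2D, an inhibitor of CDK4 and CDK6, fell.

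The list of recombination and thymocyte genes moved both ways. Of 21 tested, 4 rose (LEF1, SATB1, CD1A and CHI3L2) and 3 fell (DNTT, ADA and PTCRA), with a median of 0.18 (log2). Among all tested genes 3.85% rose and 5.64% fell. DNTT, the terminal transferase of V(D)J recombination, had 158 to 190 CPM at 0 h, 74.9, 77.7 and 77.4 CPM at 6 h and 9.13, 11 and 12.6 CPM at 12 h (log2 step -2.81, SE 0.259, adjusted p = 1.53e-09). ADA, adenosine deaminase, went from 266 to 361 CPM to 109 to 129 CPM. MYO7B, an unconventional myosin gene outside the list, went from 1060 to 1260 CPM to 394 to 442 CPM and then to 63.9 to 86.8 CPM (log2 step -2.49, SE 0.189, adjusted p = 1.91e-11). Outside that list, SH3TC1, SPNS3 and CTSG, the last encoding cathepsin G, were further extended falls, with log2 steps of -2.24, -1.86 and -1.65.

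Metabolic genes also fell in the step. Of 28 genes of cholesterol synthesis tested, 16 fell and none rose, with a median of -0.44 (log2), beside 11.6% of genes of 10 CPM or more that fell; 26 of the 28 were at that level. Of these falls, 8 began in the step and 5 reversed an early rise. STARD4, a sterol carrier, went from 198, 198 and 232 CPM to 76.0, 66.0 and 83.2 CPM (log2 -1.48, SE 0.149, adjusted p = 1.08e-08). INSIG1, the sterol-regulated brake on SREBP processing, went from 656 to 829 CPM to 371 to 449 CPM, and HMGCS1, the synthase before HMG-CoA reductase, from 341 to 379 CPM to 212 to 233 CPM. SREBF2, the transcription factor of this pathway, fell by 0.88 on the log2 scale. Of 24 glycolysis genes, 10 fell and 1, the lactate exporter SLC16A3, rose, beside 11.6% and 4.38% of genes of 10 CPM or more. With RLE or DESeq2 scaling 7 fell, and 6 fell without replicate 2 at 6 h or replicate 2 or 3 at 12 h. The rise was lost without any 1 library at 6 h or replicate 1 at 12 h. PGK1 went from 2160 to 2300 CPM to 1470 to 1540 CPM and ENO2 from 108 to 112 CPM to 44.7 to 59.6 CPM.

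Among single genes of at least 10 CPM the largest late falls were those of SYTL1, C4orf48, SUSD4, SLBP and HSPA6. SYTL1, a Rab27 effector, had 24.7 to 42.1 CPM at 0 h, 49.3 to 52.7 CPM at 6 h and 10.2 to 13.8 CPM at 12 h (log2 step -2.04, SE 0.278, adjusted p = 4.03e-06). SUSD4, a complement regulator, went from 34.9 to 38.5 CPM to 10.1 to 12.2 CPM. SLBP, the histone mRNA binding protein, went from 39.0 to 53.4 CPM to 11.3 to 17.6 CPM, although its 0 h libraries ranged from 43.3 to 103 CPM. C4orf48 spread more, with 16.8 to 33.2 CPM at 6 h and 4.42 to 10.3 CPM at 12 h. Its call was lost with DESeq2 and when any library but replicate 3 at 6 h was left out. HSPA6 lost its call with DESeq2 or without replicate 2 at 12 h.

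The main gene group to rise was that of interferon-stimulated genes, antiviral genes that cells switch on in answer to interferons. Of 48 tested, 32 rose and none fell, beside 3.85% of all genes that rose. The called rises ran from 0.42 to 4.08 (log2) and the median of the list was 0.67. Of these, 16 had already risen by 6 h and rose again, and 14 began in the step. Leaving out any 1 of the 6 libraries kept 25 to 31 rises, and RLE and DESeq2 scaling gave 34 and 35.

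TRIM22, an antiviral ubiquitin ligase, was low until 6 h, at 4.6, 4.08 and 3.29 CPM, and had 25.2, 22.2 and 26.3 CPM at 12 h (log2 2.62, SE 0.184, adjusted p = 3.24e-12). EPSTI1 began in the step, from 4.12 to 7.45 CPM to 24.7 to 29.5 CPM (log2 2.19, SE 0.249, adjusted p = 1.26e-07). OAS2, a sensor of double-stranded RNA, and the antiviral GTPase gene MX2 rose by 1.33 and 1.65, and the guanylate-binding protein gene GBP4 by 1.98. Some members did not pass the test. IRF1, the interferon-induced factor that had climbed from 83.0 to 323 CPM by 6 h, averaged 387 CPM at 12 h (adjusted p = 0.195), and IFIH1, the RNA sensor MDA5, had 10.8 and 9.15 CPM (adjusted p = 0.62).

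Promoters of the 3 interferon-stimulated genes with the smallest p among those in the promoter table are shown next, again the 250 bases before the start from RefSeq on GRCh38.p14. Capitals mark GAAANNGAA, the core of the interferon response element, on either strand. EPSTI1 is read from the minus strand at chr13:42992242-42992491, IFI44 from the plus strand at chr1:78649539-78649788 and IFI44L from the plus strand at chr1:78620198-78620447.
EPSTI1: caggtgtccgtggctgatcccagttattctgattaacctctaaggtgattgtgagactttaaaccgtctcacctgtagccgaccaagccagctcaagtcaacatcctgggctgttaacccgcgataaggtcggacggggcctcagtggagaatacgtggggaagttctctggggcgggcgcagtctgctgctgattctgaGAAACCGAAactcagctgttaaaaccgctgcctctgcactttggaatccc
IFI44: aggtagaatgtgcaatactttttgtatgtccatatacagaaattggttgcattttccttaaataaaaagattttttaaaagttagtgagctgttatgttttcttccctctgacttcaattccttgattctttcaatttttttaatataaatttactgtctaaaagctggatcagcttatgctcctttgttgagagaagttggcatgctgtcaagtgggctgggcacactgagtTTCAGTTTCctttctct
IFI44L: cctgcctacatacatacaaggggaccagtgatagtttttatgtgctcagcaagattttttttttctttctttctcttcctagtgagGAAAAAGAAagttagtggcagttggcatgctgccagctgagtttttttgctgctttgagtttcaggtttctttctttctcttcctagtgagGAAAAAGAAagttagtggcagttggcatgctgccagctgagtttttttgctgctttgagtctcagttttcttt

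IFI44 and its neighbour IFI44L are interferon-induced genes of related sequence. IFI44 had 3.33 to 4.69 CPM at 6 h and 12.9 to 17.0 CPM at 12 h, and IFI44L 0.185 to 0.414 CPM and 3.96 to 7.25 CPM. IFI44L carries the element 2 times within an almost repeated stretch of its promoter. Of the 24 promoters found among the 32 genes that rose, 17 (70.8%) held the element, beside 6.63% of the 11600 promoters of tested genes. Among all genes that rose in the step the share was 11.5%, and among all that fell 5.28%.

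Antigen presentation by MHC class I is another target of interferon. Of 21 genes tested, 13 rose, beside 3.85% of all genes and 4.38% of those at 10 CPM or more, and 1, the ER chaperone PDIA3, fell. The fall of PDIA3 was not called with RLE or DESeq2 scaling or with any 1 library left out. PSMB9, a subunit of the immunoproteasome, went from 124, 116 and 97.6 CPM to 245, 245 and 286 CPM (log2 1.20, SE 0.13, adjusted p = 4.37e-08). TAP1, a subunit of the peptide transporter, went from 326 to 385 CPM to 545 to 767 CPM. B2M, the invariant light chain, went from 2208 to 2573 CPM to 3468 to 3654 CPM. The element was present in 6 of 11 promoters found (54.5%). None of 9 tested class II genes passed the test in the step.

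Of 29 transcription factors of T helper and effector cells, 11 rose and 2 fell (STAT4 and BACH2), beside 3.85% and 5.64% of all genes. The median was 0.36 (log2). Neither fall was called without replicate 3 at 12 h, and 1 fall was called without any 1 library at 6 h or replicate 2 at 12 h. ZBTB16, which encodes PLZF, had 5.34, 2.83 and 3.06 CPM at 6 h and 28.1, 25.6 and 23.2 CPM at 12 h (log2 2.77, SE 0.234, adjusted p = 2.25e-10). ID2, an inhibitor of E proteins, rose from 17.6 to 18.8 CPM to 38 to 41.0 CPM. TBX21, which encodes T-bet, went from 3.66 to 5.89 CPM to 8.99 to 12.8 CPM (adjusted p = 0.0143), a call lost without replicate 2 or 3 at 6 h or replicate 3 at 12 h.

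Of 12 genes tested in the inhibitory receptor list, 5 rose (TOX, CD244, PDCD1, BTLA and CD200) and 1 fell (HAVCR2). Of all tested genes 3.85% rose and 5.64% fell. The fall was lost with RLE scaling and whichever library was left out, and with DESeq2 3 rises were called. TOX, a nuclear factor kept in that list, went from 249 to 254 CPM to 378 to 413 CPM. PDCD1, encoding PD-1, went from 25.9, 22.1 and 23.5 CPM to 75.9, 56.1 and 62.0 CPM (log2 1.44, SE 0.367, adjusted p = 0.0102). CD200 rose from 0.288 to 0.736 CPM to 4.21 to 8.62 CPM. SLAMF6 itself had 40.4, 39.9 and 36.1 CPM at 6 h and 53.3, 51.0 and 49.5 CPM at 12 h, with no overlap and an adjusted p of 0.0513. Counts per gene do not separate its isoforms. Of 14 genes tested in the SLAM family and its adaptors, 4 rose (CD84, SH2D1A, CD48 and CD244) and none fell.

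LEF1, a transcription factor of the WNT pathway and of thymocyte development, reversed its course. It had 296, 255 and 280 CPM at 0 h, 125, 127 and 127 CPM at 6 h and 611, 541 and 566 CPM at 12 h. The 3 times did not overlap, and the 12 h libraries ended above those at 0 h (log2 step 2.18, SE 0.132, adjusted p = 1.2e-13). TAL1, the leukaemia factor, returned to its start, with 106 to 110 CPM, then 41.7, 43.6 and 42.8 CPM, then 127, 108 and 131 CPM (log2 step 1.52, SE 0.161, adjusted p = 3.01e-08). NOTCH1 recovered partly, from 18.7 to 20.6 CPM at 6 h to 30.1 to 47.4 CPM at 12 h, against 64.6 to 98.5 CPM at 0 h.

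Other genes of the same kind were TUBA4A, DENND2D and C20orf112, each low at 6 h and above 0 h at 12 h. TUBA4A, a tubulin gene, had 8.61 to 9.75 CPM at 6 h and 33.3 to 36.0 CPM at 12 h (log2 1.93, adjusted p = 2.86e-10). Among the genes of the TAL1 complex and NOTCH targets ID1 and LMO2 also rose and HES4 fell, the fall being lost whichever of the 6 libraries was left out. LMO2 had at most 1.16 CPM in any of the 9 libraries, and HES4 fell to no counts in the 12 h libraries from 0.192 to 0.370 CPM.

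**Figure D4:**
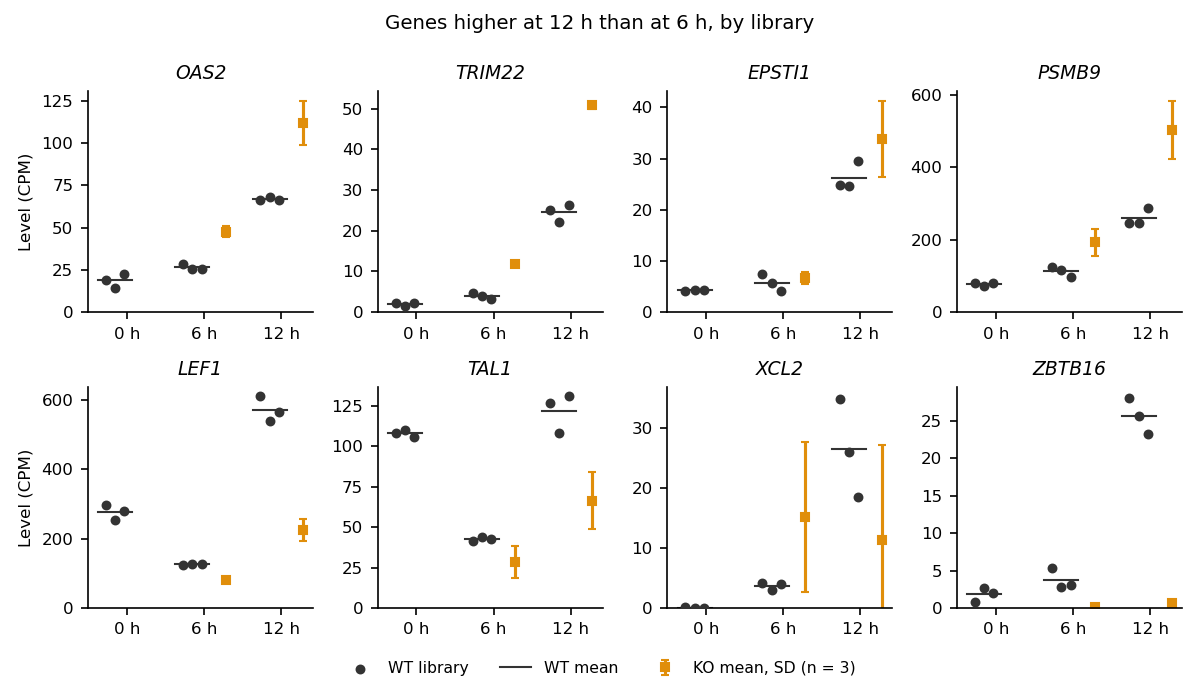
Levels (vertical axes, CPM, each from 0) of 8 genes that were higher at 12 h than at 6 h, drawn as WT libraries at 0, 6 and 12 h with their mean, and the KO mean and SD (n = 3) at 6 and 12 h. OAS2 rises at both steps, TRIM22 and EPSTI1 mostly after 6 h, and LEF1 and TAL1 dip at 6 h.

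Rises that began after 6 h outside these lists were led by SH2D3C, MUC16, FGFR1 and SNX30. SH2D3C, an adaptor of receptor signalling, had 14.3 to 16.2 CPM at 0 h, 16.5, 20.8 and 17.8 CPM at 6 h and 98.3, 78.0 and 106 CPM at 12 h (log2 step 2.36, SE 0.222, adjusted p = 2.33e-09). FGFR1, a fibroblast growth factor receptor, had 15.7 to 16.3 CPM and then 62.4 to 76.7 CPM. MUC16, a mucin gene, rose from values that differed between libraries, 7.27, 4.37 and 0.972 CPM, to 12.2, 33.1 and 16.8 CPM. GLDC, the glycine decarboxylase, continued an early rise, from 34.5 to 44.4 CPM to 142 to 170 CPM.

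Genes that persisted included strong rises and strong losses. XIRP1 had at most 0.466 CPM at 0 h, 26.1 to 33.2 CPM at 6 h and 20.9 to 29.2 CPM at 12 h. Among the losses, CD1E, a lipid-presenting molecule of thymocytes, had 1140 to 1190 CPM at 0 h, 247 to 258 CPM at 6 h and 217 to 247 CPM at 12 h. SELPLG, a selectin ligand, had 179 to 233 CPM, 26.8 to 33.8 CPM and 17.3 to 22.7 CPM. PMEPA1, LIME1 and RGL4 also stayed low, at or below 30 CPM in each WT library at 6 and 12 h.

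Few changes were called in housekeeping groups. None of the 47 ribosomal protein genes and none of the 13 mitochondrially encoded transcripts passed the test, with log2 values of -0.25 to 0.07 and -0.26 to 0.17. Of 34 nuclear genes of oxidative phosphorylation, all of 10 CPM or more, 2 fell (CYCS and SDHA), beside 11.6% of all genes at that level. Neither was called without replicate 2 at 6 h or replicate 3 at 12 h. Outside the housekeeping groups, 5 of 28 tested genes of the T cell receptor list rose, CD3D, ZAP70 and LCP2 among them, and SH2D2A fell. Among all genes of 10 CPM or more, the level of 26 of the 28, 4.38% rose and 11.6% fell. With RLE or DESeq2 scaling 7 of the list rose and 1 fell. LCP2, the adaptor SLP-76, rose from 145 to 167 CPM to 337 to 349 CPM. Of 27 feedback genes of MAPK and calcium signalling, RGS16 and DGKA rose, and DUSP5, RGS2, PTPN22 and DUSP7 fell, beside 3.85% and 5.64% of all genes. Without replicate 3 at 12 h 1 fall was called in the list, and with RLE and DESeq2 scaling 4 and 5 genes rose.

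Smaller counts came from the other lists, to be read against the 3.85% of all genes that rose and the 5.64% that fell. At 10 CPM or more, 4.38% rose and 11.6% fell. That was the level of 22 of the 32 p53 and apoptosis genes, 17 of the 19 chaperone genes and 15 of the 19 mRNA decay regulators. It was also that of 16 of the 27 quiescence genes and 18 of the 29 genes of the cytokine receptor list. In the 32 genes of p53 and apoptosis AEN, ZMAT3 and TNFRSF10B fell and TP53I3 and BCL2 rose, with no rise called in the list without replicate 1 at 6 h and 1 without replicate 2 or 3 at 6 h or replicate 1 at 12 h. Of 19 heat shock and cytosolic chaperone genes, HSPA1B, HSF1, HSPB1 and HSPD1 fell and DNAJA1 and HSPA8 rose, and with RLE or DESeq2 scaling 1 fall was called, as 0 to 2 were with 1 library left out. Of 19 mRNA decay regulators, KHSRP, ZC3H12A, CNOT7 and RC3H1 fell, and 2 falls were called with RLE scaling or without replicate 1 or 3 at either time. Of 27 quiescence and trafficking genes 7 fell, among them IL7R and TSC22D3, and KLF13 and CCR7 rose. Without any 1 of the 6 libraries 1 rise was called in the list, and 2 to 4 falls were called without any 1 library at 6 h or replicate 1 or 3 at 12 h. Of 29 cytokine receptors, JAK family kinases and SOCS genes, JAK3 and IL2RG rose and IL2RA fell. There 1 rise was called without replicate 1 at 6 h or replicate 1 or 3 at 12 h.

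**Figure D5:**
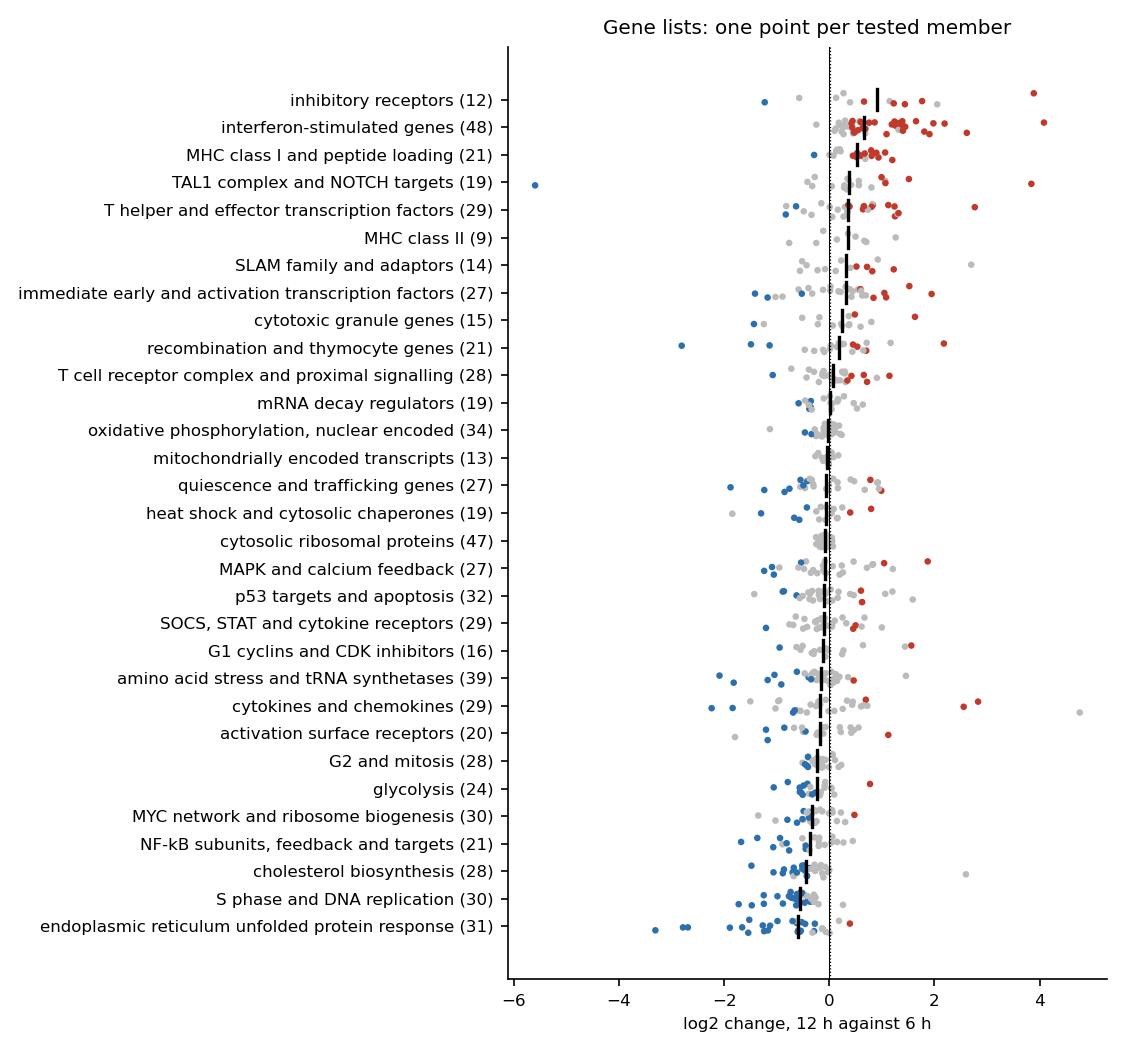
Change from 6 to 12 h (horizontal axis, log2) of each tested member of 31 gene lists, with the number tested in brackets, called rises in red, called falls in blue, uncalled members in grey, a bar at each list's median and a dotted line at the median of all tested genes. The ER stress, S phase and cholesterol lists lie lowest among the lists with many calls, and the interferon and MHC class I lists lie to the right.

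The same step in KO cells shares no library with the WT step. In KO, 1095 genes rose (5.08%) and 1239 fell (5.75%) between 6 and 12 h. Of the 829 WT rises, 318 also rose in KO (38.4% of the WT and 29% of the KO list) and 6 fell. Of the 1216 WT falls, 521 also fell in KO (42.8% and 42.1%) and 5 rose. Among genes of 10 CPM or more, 262 of 393 WT rises (66.7%) and 448 of 1036 WT falls (43.2%) were called in KO too. The test of the difference itself called 153 genes (0.71%). That count depended on single libraries: it was 254 without replicate 2 of KO at 6 h, 259 without replicate 1 of KO at 12 h, and 89 to 101 without WT replicate 1 or 2 at 6 h, WT replicate 1 or 2 at 12 h, KO replicate 1 or 3 at 6 h or KO replicate 2 at 12 h.

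Of the 31 ER stress genes, 18 had a step that differed between genotypes, beside 0.71% of all genes. For HSPA5 the KO mean was 2730 ± 201 CPM (SD, n = 3) at 6 h and 1370 ± 90.4 CPM at 12 h, against 6860 ± 145 and 997 ± 19.8 CPM in WT. The KO step was -1 (log2) and the difference from WT 1.78 (SE 0.147, adjusted p = 8.81e-10). For DNAJC3 the KO means were 135 ± 15.5 and 125 ± 5.65 CPM, a step of -0.11 beside -1.66 in WT (adjusted p of the difference 1.58e-08). The median step of the list was 0.04 in KO and -0.60 in WT. Of the 28 cholesterol genes 5 also differed, and the median step of that list was 0.03 in KO and -0.44 in WT. Among the 19 heat shock and cytosolic chaperone genes 7 differed, with a list median of -0.36 in KO and -0.06 in WT. Smaller numbers differed in some other lists.

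For interferon-stimulated and S phase genes no member had a called difference between genotypes, and the list medians were 0.67 in WT and 0.79 in KO for the first and -0.56 and -0.76 for the second. A missed threshold does not show that the steps were equal. PDCD1 rose in WT (1.44) and had a KO step of -0.75 (adjusted p of the difference 0.0317), with KO levels of 47.4 ± 17.8 and 28 ± 31.2 CPM that spread more than those of WT. LEF1 rose in both, by 2.18 in WT and by 1.45 in KO, where it reached 225 ± 32.0 CPM at 12 h.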

How the data were processed

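RNA-seq was done by the submitters on 30 libraries. Per the labels' protocols, cells were lysed in TCL buffer, RNA was taken up on SPRI beads and Illumina libraries were made. The submitters' processing notes name cutadapt, STAR, DESeq2 and the builds GRCh37 and hg19. The counting program is not given in the sources used here. The deposited values are expected counts per gene symbol, of which 0.177% were not whole, and they were rounded. The times carry no unit in the labels and were read as hours.

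Genes passing edgeR's filterByExpr (minimum count 10) were fitted in edgeR 4.0.16 (R 4.3.3) with TMM scaling, 10 group means over all 30 libraries and the quasi-likelihood F test, adjusted by Benjamini-Hochberg within each contrast and called below 0.05. CPM values are scaled by TMM. The SE is the log2 change over the square root of F. An early change is 6 h against 0 h. It fades where the step is called in the opposite direction, extends where the step is called in the same direction, and persists where the step is not called and 12 h against 0 h is. A change begins where it is called in the step and against 0 h but not early. Alternatives were DESeq2 1.42.0, RLE scaling, no filter, smaller sets of libraries and leaving out 1 library. On simulated counts for the step, 70% of 50 genes changed 1.5-fold and 100% of those changed 2-fold were called. The share called was not tested separately for genes below 10 CPM. In the WT libraries themselves MYC, at a mean of 52 CPM, fell 2.03-fold from 6 to 12 h and was not called. Replicate libraries differed by more than counting noise. Genes named always were SLAMF6, IL2, IFNG, TBX21, CD69, EGR1 and MYC. The others were the 12 largest rises and 12 largest falls among called genes of at least 10 CPM at 6 or 12 h without overlap, up to 5 of each class and direction, and up to 4 called members of each list with the smallest p. Further list members, such as XBP1, IFI44 and the members listed to explain a small count, were named after their values were seen. The classes, lists and genes were chosen with earlier results of these data known. Gene positions come from GENCODE 29 on GRCh38, matched by symbol, not from the authors' build. Some genes are not reported here.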

Additional observations from a re-analysis of the deposited data

Results flagged for a closer look

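For 21 of the 141 named genes the step from 6 to 12 h differed between KO and WT cells by the test of the difference itself (edgeR quasi-likelihood, Benjamini-Hochberg adjusted over all tested genes). Each value is the KO step minus the WT step on the log2 scale.

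Genes of ER stress fell less in KO. The difference was 2.02 for HERPUD1 (adjusted p = 4.42e-11), 1.82 for SDF2L1 (adjusted p = 2.13e-09), 1.78 for HSPA5 (adjusted p = 8.81e-10), 1.55 for DNAJC3 (adjusted p = 1.58e-08) and 1.46 for DDIT3 (adjusted p = 3.69e-06). All 5 had lower means at 6 h in KO than in WT, and the part of that starting level in the difference was not tested.

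Other falls of WT were smaller in KO. The difference was 1.08 for SH3RF2 (adjusted p = 0.0294), 1.06 for STARD4 (adjusted p = 0.00583) and 0.90 for BIRC3 (adjusted p = 0.00951). MVK, mevalonate kinase, fell by 1.06 in WT and had a KO step of 0.18, a difference of 1.24 (adjusted p = 0.000639). IL32 fell by 0.66 in WT and had a KO step of 0.31, a difference of 0.96 (adjusted p = 0.00331). Rises were larger in KO for GZMA, by 0.99 (adjusted p = 0.0294), and for the class I gene HLA-F, by 0.77 (adjusted p = 0.0198).

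For the remaining genes the KO step lay below the WT step. The difference was -1.37 for the mitochondrial chaperone gene HSPD1 (adjusted p = 2.45e-05), -0.97 for CBS, cystathionine beta-synthase (adjusted p = 0.0466), and -2.37 for IL8 (adjusted p = 0.0317). It was -2.19 for PDCD1 (adjusted p = 0.0317), -1.10 for TUBA4A (adjusted p = 0.0115) and -1.06 for PMEPA1 (adjusted p = 0.0115). SATB1, a chromatin organiser of thymocytes, gave -0.91 (adjusted p = 0.00271), DENND2D -0.89 (adjusted p = 0.0397) and LEF1 -0.73 (adjusted p = 0.046).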

How the results depend on the processing

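None of the 128 named genes called in the step changed direction under the alternatives run. Of them, 104 kept their call wherever an adjusted p was given. The balance between all rises and falls did turn with the scaling. DESeq2 gave 1269 rises, 624 of them at 10 CPM or more, 220 reversed falls, 500 late rises and 259 genes whose step differed in KO. RLE scaling gave 684 falls at 10 CPM or more and 269 late falls. Without the filter 408 steps differed in KO. The 15 WT libraries alone gave 202 reversed falls. The 6 libraries alone gave 4101 calls, 1896 rises and 2205 falls, with 793 and 1927 at 10 CPM or more. Of the calls, 699 were at least 2-fold. With 1 library left out, the ranges were 1209 to 1427 calls, 451 to 584 rises, 736 to 843 falls, 266 to 314 rises and 623 to 739 falls at 10 CPM or more, 3805 to 4794 early and 5339 to 6447 late calls. They were 243 to 358 fading rises, 76 to 122 reversed falls, 119 to 178 and 143 to 260 extended rises and falls, 1123 to 1445 and 1279 to 1626 persisting rises and falls, 169 to 277 and 258 to 480 late rises and falls, and 89 to 259 steps differing in KO. The causes were not tested, beyond the fewer libraries these fits hold. The list medians that changed sign were those of heat shock, mitochondrial, mRNA decay, oxidative phosphorylation and quiescence genes. No paired analysis was possible because the 6 h and 12 h libraries carry no shared replicate numbers in their labels. Below 1 CPM few counts limit the precision.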
